A study of Mus musculus with 8 samples.

Results

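The 10 genes described here encode the channels, pumps and sensors of the intracellular calcium store: the ryanodine receptors Ryr1, Ryr2 and Ryr3, the inositol trisphosphate (IP3) receptors Itpr1, Itpr2 and Itpr3, the calcium pumps Atp2a2 and Atp2a3, and the calcium sensors Stim1 and Stim2. They were found by the gene name printed for each probe of the array, which gave 13 of 55681 non-control probes and 10 of 34808 gene names or probe identifiers without a name. Of the 10 genes, 7 had 1 probe and 3 (Itpr2, Atp2a2 and Stim1) had 2. RNA came from the striatal medium spiny neurons (MSNs) of male mice aged 4 weeks, inhibitory cells that send the output of the striatum. The labels give 4 arrays to R6/2;Scn4b-Venus and 4 to WT;Scn4b-Venus mice, called R6/2 and WT below. R6/2 mice are a Huntington's disease model in which a fragment of the human huntingtin gene with a long CAG repeat is expressed from the human promoter, so that the transgene is not limited to MSNs. Both groups carry the Scn4b-Venus reporter, a fluorescent protein driven as Scn4b is. Venus-positive cells without propidium iodide, a dye that enters dead cells, were sorted, and 4 to 20 ng of total RNA were extracted. Whether an array holds 1 mouse or a pool is not given in the sources used here, so that p-values measure the spread between these samples.

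The endoplasmic reticulum holds calcium at a far higher concentration than the cytosol. SERCA pumps, encoded by the Atp2a genes, fill it, and ryanodine and IP3 receptors open to release calcium. Ryanodine receptors respond to calcium itself, and IP3 receptors to IP3 made after activation of receptors coupled to Gq proteins. STIM proteins sense the fall of calcium in the store and open Orai channels in the plasma membrane, which refills it. In MSNs, IP3 is made downstream of the glutamate receptor Grm5, and Itpr1 is known as the main IP3 receptor of neurons.

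The probes on which the results turn are single-stranded DNA of 60 bases, given 5′ to 3′ with mm9 coordinates from the file headers, to show which stretch of RNA each value reads. Capitals in the Ryr3 probe mark AATAAA, the usual polyadenylation signal, and those in the Stim1 probes mark the run of 51 bases that both share. The Stim1 probe A_55_P2022342 also holds AATAAA, in the lower-case end that follows the shared run.
Ryr1 (chr7:29788789-29789487, minus strand): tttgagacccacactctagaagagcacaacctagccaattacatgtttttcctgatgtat
Ryr2 (chr13:11645812-11645871, minus strand): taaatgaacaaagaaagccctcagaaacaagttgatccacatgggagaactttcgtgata
Ryr3 (chr2:112471537-112471596, minus strand): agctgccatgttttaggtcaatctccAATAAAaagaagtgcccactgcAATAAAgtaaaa
Itpr1 (chr6:108501025-108501084, plus strand): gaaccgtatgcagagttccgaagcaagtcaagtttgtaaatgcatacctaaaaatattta
Stim1, A_55_P1969750 (chr7:109585303-109585362, plus strand): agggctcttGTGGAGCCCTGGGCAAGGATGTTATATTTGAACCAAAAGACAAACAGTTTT
Stim1, A_55_P2022342 (chr7:109585312-109585371, plus strand): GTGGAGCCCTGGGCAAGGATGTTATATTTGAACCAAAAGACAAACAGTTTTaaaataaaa

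The Ryr1 probe covers 699 bases of the genome with 60 bases of sequence, as a probe across a splice junction does, while the others printed above cover 60. An mm9 annotation was not used here, so that exon or untranslated region is not stated. Probes of different genes among the 10 shared no run longer than 9 bases. AATAAA occurs in 3 of the 13 probes, against 10.1% of all 55681 probes, and its reverse complement in 0 of the 13, against 3.74%.

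Levels are log2 of the processed signal relative to the 75th percentile of the array, so that 0 is the level of that percentile. Across the arrays, that percentile was 314 to 383 intensity units in R6/2 and 333 to 353 in WT, and the share of probes well above background was 74.0% to 78.8% in R6/2 and 50.1% to 76.2% in WT, with the lowest share in WT replicate 1. R6/2 replicate 4 was on a second slide, scanned separately, and the other 7 arrays shared the first. Probes well above background on 4 or more arrays were tested, 41379 in all, among them all 13 of the calcium store. Of these 13, 9 were well above background on all 8 arrays. The other 4, both Itpr2 probes, Itpr3 and Stim2, were so on 3 or 4 arrays of each group.

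No calcium store probe passed an adjusted p of 0.05 in limma over all tested probes. Adjusted p-values ran from 0.485 to 0.995. Over all tested probes 1 was higher at this threshold, 0.00242% of those tested, and 0 were lower (0%). At an unadjusted limma p under 0.05, 3 of the 13 probes were lower in R6/2 (23.1%, against 3.05% of all tested probes) and 0 were higher (against 3.97%). These were probes of Ryr1, Itpr1 and Stim1. The same 3 probes were those in which every R6/2 array lay below every WT array (23.1%, against 2.26% of all tested probes), and in none did every R6/2 array lie above every WT array (against 2.31%). A negative difference, R6/2 minus WT, was found in 11 of 13 probes, or 84.6%, against 44.5% of all tested probes. The median difference was -0.47 on the log2 scale over the 13 probes and +0.05 over all tested probes. Over probes well above background on all 8 arrays, the medians were -0.64 for the 9 calcium store probes and -0.01 for all 26665. The median over all tested probes thus depends on the filter. The Stim1 probes overlap, and the probes of a gene are not independent readings. The genes were also chosen with earlier results of these data known, so that these shares are not an independent test of an excess.

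**Figure D1:**
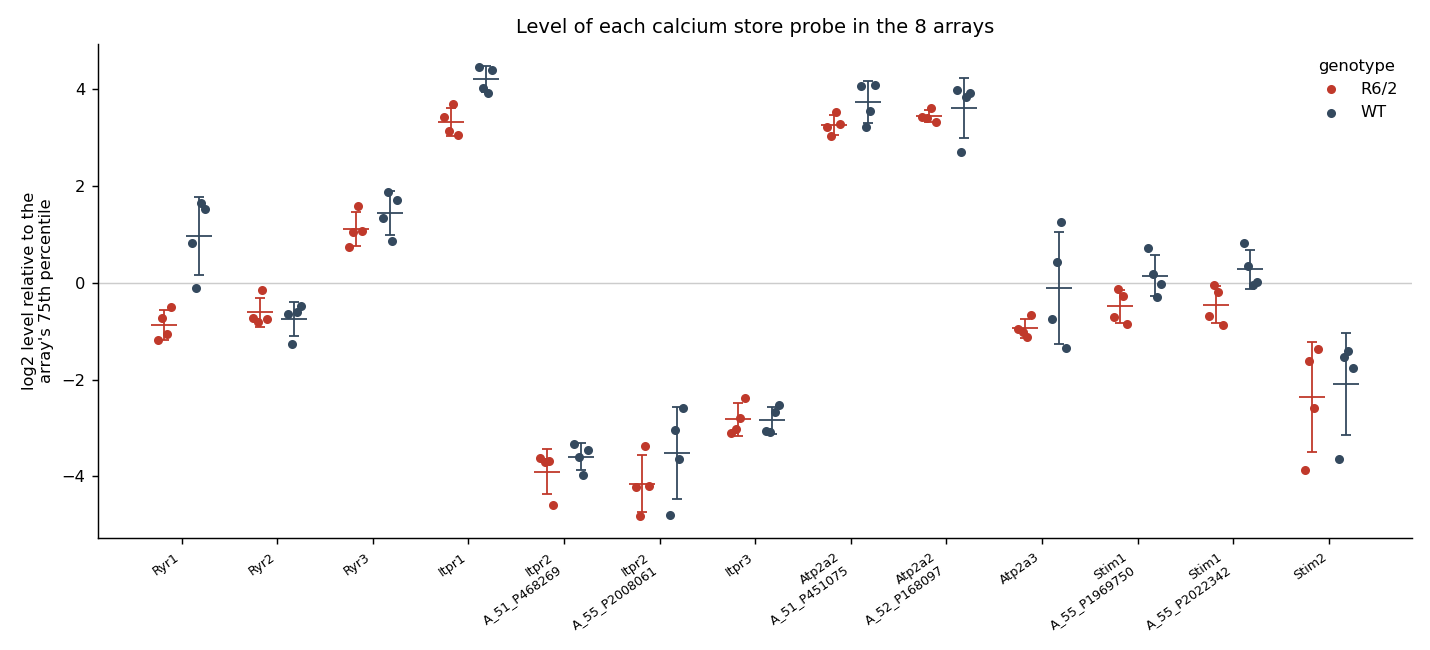
Level of each of the 13 calcium store probes (log2, relative to the 75th percentile of the array) in the 4 R6/2 and 4 WT arrays. Points are arrays, and bars are the group mean and SD; the groups stand apart for Ryr1, Itpr1 and the Stim1 probe A_55_P2022342, and levels of different probes are not comparable.

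Ryanodine receptors release store calcium when cytosolic calcium rises. Ryr1, the release channel of skeletal muscle that is also expressed in brain, had the largest difference of the 13 probes. Its processed signal was 139, 221, 177 and 270 intensity units in R6/2 replicates 1 to 4, against 626, 319, 1042 and 980 intensity units in WT replicates 1 to 4. On the log2 scale its level was -1.18, -0.73, -1.06 and -0.51 in the R6/2 arrays, against 0.83, -0.11, 1.64 and 1.53 in the WT arrays. All 4 R6/2 arrays lay below all 4 WT arrays, and WT replicate 2 was the WT array closest to R6/2. The mean was -0.87 ± 0.31 in R6/2 and 0.97 ± 0.80 in WT (SD, n = 4 each), so that the WT arrays were spread more widely. The difference was -1.84 ± 0.40 (standard error), with a 95% interval from -2.74 to -0.94, or 3.58-fold lower in R6/2 (1.91-fold to 6.70-fold). Its unadjusted limma p was 0.00142, the 117th smallest of 41379 probes, and its adjusted p in limma was 0.485. Within the first slide the difference was -1.96. It was -2.20 without WT replicate 2 and at its smallest among the fits that leave out 1 array without WT replicate 3, at -1.62. In the authors' deposited table Ryr1 is given as down by 3.58-fold with a corrected p-value of 0.726.

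The other ryanodine receptors did not share the separation of Ryr1. Ryr2, the release channel of heart muscle and the most widely expressed ryanodine receptor of the brain, was at -0.72, -0.80, -0.16 and -0.76 in the R6/2 arrays, against -0.65, -1.25, -0.60 and -0.47 in the WT arrays. The groups overlapped, with R6/2 replicate 3 the highest array and WT replicate 2 the lowest. The difference was +0.13 ± 0.25 (standard error, interval -0.44 to 0.71). Ryr3, a ryanodine receptor found in brain and in immature muscle, was at 0.74, 1.04, 1.60 and 1.06 in the R6/2 arrays, against 1.34, 1.87, 0.85 and 1.72 in the WT arrays. Here too the groups overlapped, and the difference was -0.34 ± 0.29 (standard error, interval -1.0 to 0.33). Within each array, Ryr1 minus Ryr2 shifted by -1.97 in R6/2 relative to WT, a difference that the scaling of the arrays cannot alter. Each of the R6/2 arrays lay below each of the WT arrays (exact permutation p = 0.0286, two-sided, the smallest possible). Ryr1 minus Ryr3 shifted by -1.50 with overlapping groups (exact permutation p = 0.114). Over the 12 such pairs of probes computed, these values were 0.171 and 0.245 after Benjamini-Hochberg adjustment. With so few arrays, a single pair at the smallest possible p cannot pass this adjustment, so that the adjusted values say little about whether the receptors changed unequally.

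IP3 receptors are the channels through which Gq-coupled receptors release store calcium. Itpr1 was at 3.42, 3.14, 3.68 and 3.05 in R6/2 replicates 1 to 4, against 4.46, 4.03, 3.92 and 4.40 in WT replicates 1 to 4. In intensity units this was 3369, 3220, 4728 and 3175 in R6/2, against 7753, 5606, 5042 and 7178 in WT. All 4 R6/2 arrays lay below all 4 WT arrays, the nearest pair being R6/2 replicate 3 and WT replicate 3. The mean was 3.32 ± 0.29 in R6/2 and 4.20 ± 0.27 in WT (SD, n = 4 each). The difference was -0.88 ± 0.23 (standard error), with an interval from -1.41 to -0.35, or 1.84-fold lower in R6/2 (1.28-fold to 2.65-fold). Its unadjusted limma p was 0.00467, the 345th smallest, and its adjusted p in limma was 0.560. The difference was -0.79 within the first slide and ran from -1.0 to -0.79 over all 17 alternative settings. Itpr1 was also among the least variable probes, with a within-group SD that exceeded that of only 18.7% of tested probes. The corresponding share was 63.7% for Ryr1.

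A further probe lies in the same locus on the other strand. It is named Gm10429, a name that the RefSeq table now lists as an older name of Itpr1, and it lies 79912 bases from the Itpr1 probe on the minus strand. It was not counted among the 13 and was singled out after its values were seen.
Gm10429, A_55_P1988766 (chr6:108421053-108421112, minus strand): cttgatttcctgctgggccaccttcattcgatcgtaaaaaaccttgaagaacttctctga
Its level was 4.25, 4.33, 4.53 and 4.32 in the R6/2 arrays, against 5.08, 5.45, 5.20 and 5.08 in the WT arrays, again without overlap. The difference was -0.85 ± 0.18 (standard error), with an adjusted p = 0.485 in limma. Since it reads the opposite strand, it is not a second measurement of the Itpr1 messenger RNA, and which RNA it reads was not tested.

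Itpr2 and Itpr3, the IP3 receptors best known from non-neuronal cells, were dim and did not separate the groups. The Itpr2 probe A_51_P468269 was at -3.61, -3.71, -3.68 and -4.60 in the R6/2 arrays, against -3.33, -3.61, -3.97 and -3.45 in the WT arrays, with a difference of -0.31 (interval -0.95 to 0.33). Without R6/2 replicate 4, its lowest array, the difference was -0.08. The other Itpr2 probe differed by -0.63 with an interval from -1.78 to 0.51, and its WT arrays ranged from -4.80 to -2.58. Without WT replicate 1 it differed by -1.06 at an unadjusted limma p of 0.0298, and without WT replicate 4 by -0.32 at 0.532. Of the 15 alternatives that tested this probe, 1 had an unadjusted p under 0.05. Itpr3, read by 10 spots on each array, averaged -2.82 ± 0.33 in R6/2 and -2.84 ± 0.28 in WT (SD, n = 4 each). Its difference was +0.01, with an interval from -0.54 to 0.57, or from 0.686-fold to 1.48-fold of the WT level. Within each array, Itpr1 minus Itpr3 shifted by -0.89 and the groups did not overlap (exact permutation p = 0.0286, adjusted over the 12 pairs 0.171). Itpr1 minus Itpr2, by the Itpr2 probe A_51_P468269, shifted by -0.57 with overlapping groups (exact permutation p = 0.0571, adjusted 0.229). Itpr1 was not paired with the other Itpr2 probe, whose own difference was the more negative, so that this shift rests on the choice of probe.

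The SERCA pumps return calcium to the store. Atp2a2 encodes the pump of most cells, including neurons and heart. Its probe A_51_P451075 was at 3.22, 3.03, 3.52 and 3.27 in the R6/2 arrays, against 4.07, 3.21, 3.55 and 4.09 in the WT arrays. Its probe A_52_P168097 was at 3.42, 3.41, 3.61 and 3.32 in the R6/2 arrays, against 3.98, 2.69, 3.83 and 3.92 in the WT arrays. In both, WT replicate 2 was the lowest WT array, and the groups overlapped through it. The differences were -0.47 ± 0.26 and -0.17 ± 0.31 (standard errors), with intervals from -1.06 to 0.12 and from -0.87 to 0.54. Without WT replicate 2 they were -0.64 and -0.47, at unadjusted limma p-values of 0.0269 and 0.0347. Without WT replicate 1 they were -0.36 and -0.04, at unadjusted limma p-values of 0.228 and 0.902. An unadjusted p under 0.05 was found in 1 of 16 alternatives for A_51_P451075 and in 1 of 17 for A_52_P168097.

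Atp2a3, the SERCA pump known from blood cells and, in brain, from cerebellar Purkinje neurons, had the most uneven WT arrays of the pumps. It was at -0.96, -1.01, -1.12 and -0.67 in the R6/2 arrays, against -0.74, 0.42, 1.25 and -1.34 in the WT arrays. The R6/2 arrays were close together, and the WT arrays lay on both sides of them. The difference of -0.84 ± 0.52 (standard error) had an interval from -2.02 to 0.35, and it ranged from -1.25 without WT replicate 4, at an unadjusted limma p of 0.0249, to -0.39 without WT replicate 3. Atp2a2, by its probe A_52_P168097, minus Atp2a3 within the arrays shifted by +0.67 (exact permutation p = 0.400). The other Atp2a2 probe was not paired with Atp2a3.

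STIM proteins report an emptied store to the plasma membrane. Stim1, by probe A_55_P2022342, was at -0.68, -0.05, -0.20 and -0.86 in the R6/2 arrays, against 0.82, 0.34, -0.05 and 0.01 in the WT arrays. The groups did not overlap, but R6/2 replicate 2 and WT replicate 3 were nearly equal, at -0.055 and -0.052. By the overlapping probe A_55_P1969750 it was at -0.70, -0.13, -0.27 and -0.86 in the R6/2 arrays, against 0.72, 0.19, -0.29 and -0.03 in the WT arrays, where 1 WT array, replicate 3, was below 2 of the R6/2 arrays. The differences were -0.73 ± 0.28 and -0.64 ± 0.28 (standard errors), with intervals from -1.38 to -0.08 and from -1.28 to 0.01. Their unadjusted limma p-values were 0.0319 and 0.0523, and their adjusted p-values in limma were 0.689 and 0.709. For A_55_P2022342 the difference within the first slide was -0.59 at an unadjusted limma p of 0.0805. It was -0.65 (0.0779) without R6/2 replicate 1, -0.55 (0.0814) without WT replicate 1 and -0.71 (0.0603) without WT replicate 2, with the unadjusted limma p in parentheses.

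Stim2, the sensor that responds to small falls of store calcium, was the most variable of the 13. It was at -3.87, -1.61, -2.58 and -1.37 in the R6/2 arrays, against -3.64, -1.54, -1.40 and -1.76 in the WT arrays. Replicate 1 was the lowest array of either genotype, and WT replicate 1 was not well above background. The difference of -0.28 ± 0.67 (standard error) had an interval from -1.80 to 1.25, or from 0.287-fold to 2.38-fold of the WT level. A total of 89.2% of tested probes had a smaller within-group SD.

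**Figure D2:**
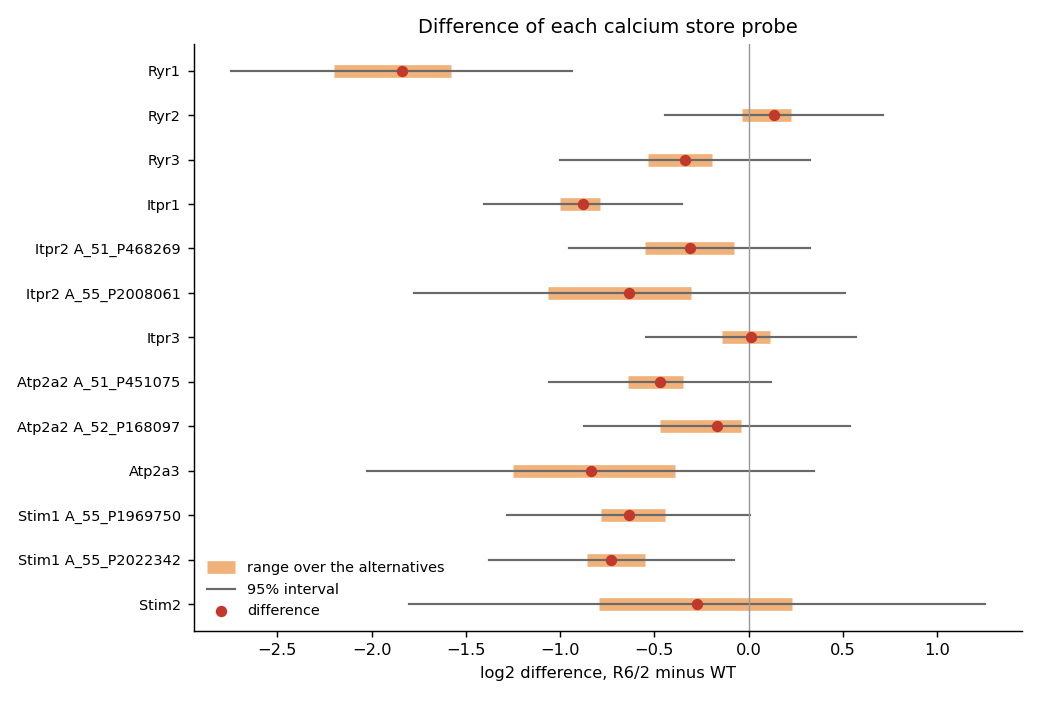
Log2 difference, R6/2 minus WT, of each calcium store probe, with its 95% interval in limma (line) and the range over the alternative settings (band). The intervals of Ryr1, Itpr1 and the Stim1 probe A_55_P2022342 lie below 0, and the other 10 include it.

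**Figure D3:**
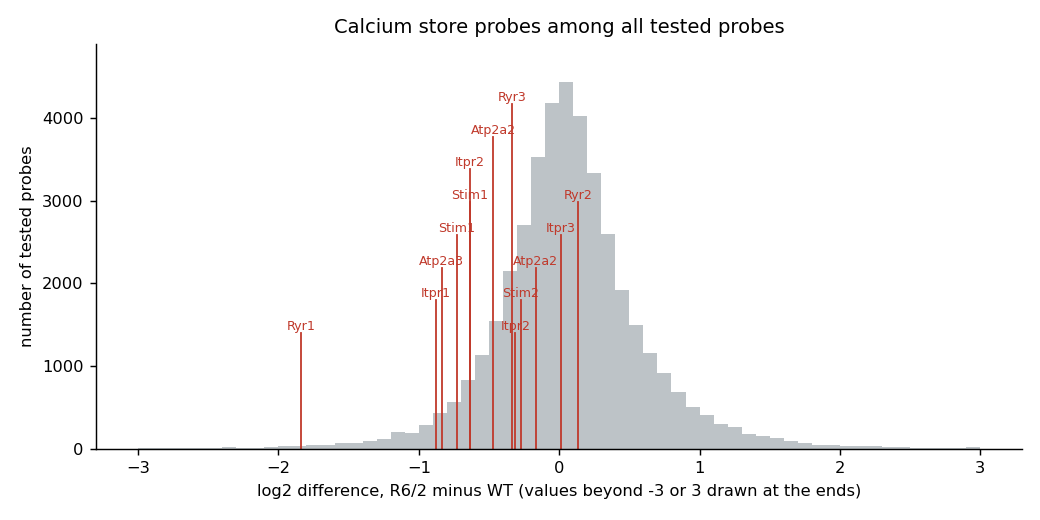
Number of tested probes by log2 difference, R6/2 minus WT, in bins of 0.1, with the 13 calcium store probes marked. Ryr1, at -1.84, lies in the lower tail, and Ryr2 and Itpr3 are the members above 0.

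Markers of MSNs and of other cells were read on the same arrays. All 16 MSN markers were well above background on all 8 arrays, and their summed level relative to the 75th percentile was 833 to 940 in the R6/2 arrays, against 1192 to 1439 in the WT arrays, without overlap. The difference was negative in all 16 (median -0.54), but the groups overlapped for 10 of them and none passed after adjustment in limma. The smallest of these differences was that of Tac1, at -0.08, and Scn4b, on whose reporter the cells were sorted, differed by -1.15, with an adjusted p = 0.552 in limma. The part of this shift in the differences of Ryr1, Itpr1 and Stim1 was not tested, and fewer cells of a type and less RNA per cell cannot be told apart in such samples. The summed level of 8 oligodendrocyte markers was 12.5 to 20.7 in R6/2 and 12.7 to 67.6 in WT, and 7 of the 8 had a negative difference (median -0.84). For 5 markers of oligodendrocyte precursors it was 0.866 to 1.34 in R6/2 and 1.28 to 1.77 in WT, with 4 negative differences (median -0.63). That of 9 astrocyte markers was 2.34 to 5.72 in R6/2 and 2.21 to 5.98 in WT. The sums of these 3 lists overlapped. The summed level of 8 microglia markers was 148 to 173 in R6/2 and 179 to 199 in WT, without overlap. Itgam made up most of this sum, while P2ry12 was well above background on 1 array. Of the 8 markers, 4 had a negative difference (median +0.02), and the groups overlapped for 7. The summed levels of markers of endothelial and mural cells, striatal interneurons and cortical glutamatergic neurons overlapped between the groups. The part of these cells in the differences was not tested.

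Other genes of calcium handling were taken from a list of 67 genes in 6 groups, of which 65 were on the array and 61 were tested. None passed in limma after adjustment. At an unadjusted limma p under 0.05, 3 were lower, or 4.92% against 3.05% of all tested probes. Another 5 were higher, or 8.20% against 3.97%. Among these 5, Jph1 was well above background on 4 R6/2 arrays and 1 WT array. With only probes well above background on all 8 arrays, where fewer genes were tested, 6 were lower and 2 higher. The number of listed genes tested with this filter is not given, so that these counts cannot be read as shares. Over all probes with this filter, 2129 of 26665 had an unadjusted limma p under 0.05 in either direction. In the main fit these were 2903 of 41379. Of the 61 genes, 28 had a negative and 33 a positive difference, and the median was +0.06. With 1 probe per gene, as in this list, the median over the 10 calcium store genes was -0.32, and the difference between the lists was not tested. Of the 27 listed genes with more than 1 tested probe, 10 had another probe with a difference of the opposite sign, so that the counts by sign below rest on the choice of probe.

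Among the genes that make and remove IP3, 8 of 12 differences were negative (median -0.34). Grm5, the Gq-coupled glutamate receptor upstream of Itpr1, was at 5.90, 5.96, 6.03 and 5.73 in the R6/2 arrays, against 6.22, 6.43, 6.34 and 6.55 in the WT arrays. The groups did not overlap, and the difference was -0.48 ± 0.18 (standard error), with an adjusted p = 0.680 in limma. Its 2 other tested probes differed by -0.66 and -0.08.

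Among proteins that bind release channels or join the store to the plasma membrane, 7 of 16 differences were negative (median +0.03). Jph4, a junctophilin of neurons that holds the 2 membranes together, was at 2.52, 2.71, 2.28 and 2.49 in the R6/2 arrays, against 2.73, 2.87, 3.19 and 3.58 in the WT arrays, a difference of -0.60 ± 0.24 (standard error) without overlap. Its other probe differed by -0.61. Sri, which encodes the ryanodine receptor partner sorcin, had a positive difference. It was at 1.95, 1.72, 1.46 and 1.55 in the R6/2 arrays, against 0.91, 1.22, 0.51 and 0.61 in the WT arrays, a difference of +0.86 ± 0.23 (standard error) without overlap. Jph1, the junctophilin of skeletal muscle, was well above background on 4 R6/2 arrays and 1 WT array. Its difference of +2.03 ± 0.68 (standard error), with overlapping groups, rests on WT values near background.

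Calcium-binding proteins of the store lumen had 7 positive and 2 negative differences, with a median of +0.08. Calr, which encodes the buffer and chaperone calreticulin, was at 3.68, 3.22, 3.45 and 3.50 in the R6/2 arrays, against 3.14, 2.30, 2.67 and 2.74 in the WT arrays, a difference of +0.75 ± 0.23 (standard error) without overlap. Casq2, the calsequestrin of heart muscle, differed by +0.68 ± 0.20 (standard error) without overlap, at -2.38 ± 0.25 in R6/2 and -3.06 ± 0.16 in WT (SD, n = 4 each). The Casq2 probe was dim, and was well above background on 4 R6/2 arrays and 3 WT arrays. The adjusted limma p was 0.608 for Calr and 0.602 for Casq2.

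Among genes of store-operated entry, 8 of 9 differences were positive (median +0.16) by the brightest probe. The other probe of Orai2 differed by -0.66, against +0.15 for the brightest, and that of Cracr2b by -0.020, against +0.085. Other probes of Orai3 differed by -0.74 and +0.23, against -0.13. Several of these genes, among them Orai1, Cracr2a and Cracr2b, were well above background on 4 R6/2 arrays but on 3 WT arrays. Cracr2a, which encodes a calcium-binding regulator of Orai channels, had a mean of -2.14 in R6/2 and -3.15 in WT, with every R6/2 array above every WT array. Its difference was +1.01 ± 0.25 (standard error), with an adjusted p = 0.552 in limma. Orai1, a channel that STIM proteins open, differed by +0.50 ± 0.37 (standard error) with overlapping groups. The other SERCA gene tested, Atp2a1, known as the pump of fast skeletal muscle, differed by -0.22 ± 0.23 (standard error) and was well above background on all 8 arrays.

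Pumps and exchangers that clear calcium by other routes had 9 negative and 5 positive differences, with a median of -0.21. Slc8a2, a sodium-calcium exchanger of the neuronal plasma membrane, was at 2.55, 2.32, 2.69 and 2.36 in the R6/2 arrays, against 3.24, 2.81, 3.16 and 3.21 in the WT arrays. The groups did not overlap, and the difference was -0.62 ± 0.20 (standard error), with an adjusted p = 0.630 in limma. Atp2b1, a calcium pump of the plasma membrane, differed by -0.47 ± 0.25 (standard error) with overlapping groups.

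**Figure D4:**
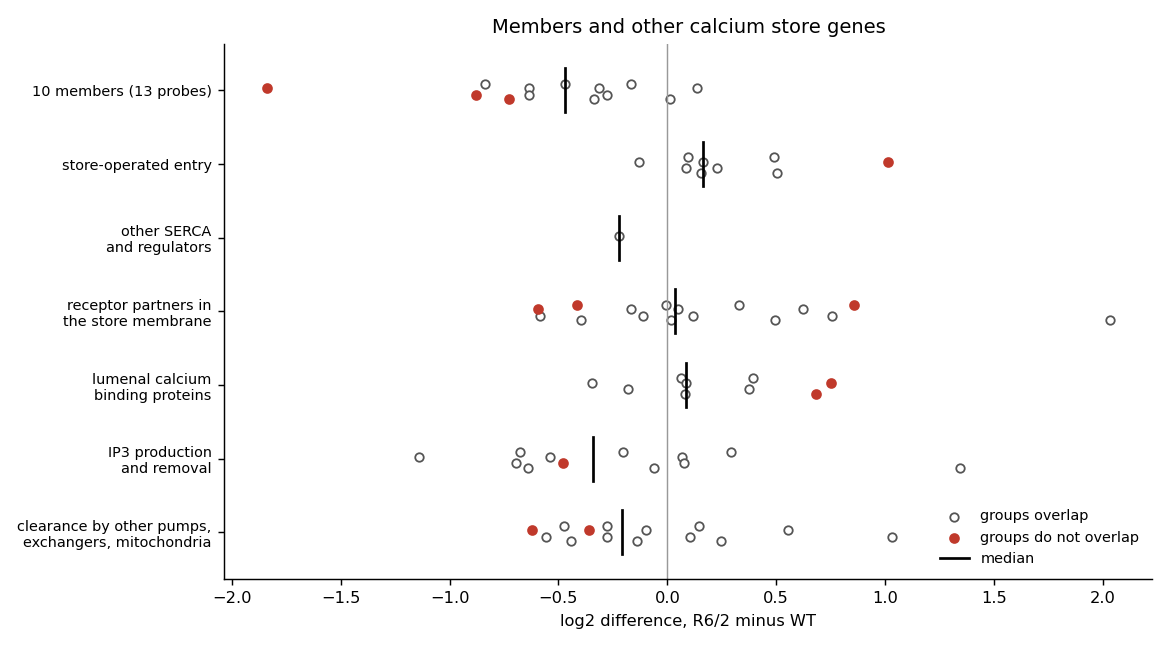
Log2 difference, R6/2 minus WT, of the 13 probes of the 10 calcium store genes (top) and of 61 other genes of calcium handling in 6 groups. Filled points are probes whose R6/2 and WT arrays do not overlap, and lines are medians, from -0.47 for the 13 probes to +0.16 for store-operated entry. The other groups are read by 1 probe per gene. Read in that way, the 10 genes had a median of -0.32, against -0.34 for the genes that make and remove IP3.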

How the data were processed

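Per the file headers, each array was scanned with 1 dye (Cy3) and read with Agilent Feature Extraction 10.7.3.1, which gave a background-subtracted and detrended processed intensity per spot, not scaled between arrays. The headers name mm9 as the build of the probe coordinates. Mean and background intensities from the same files served an alternative. The authors' deposited table holds 55680 of these probes with raw intensity, log2 values that equal log2 of the raw intensity minus a constant per array close to log2 of its 75th percentile (column medians from -2.57 to -2.16), the p-value of an unpaired test, a corrected p-value and an unsigned fold ratio. Another 8 columns of per-array marks in it were not used.

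Here spots marked as outliers were left out, log2 values of a probe's spots were averaged and the 75th percentile over non-control probes was subtracted. In R6/2 replicate 3, 1 garbled line was left out. R6/2 minus WT was fitted with limma 3.58.1 on R 4.3.3 over 41379 probes, with Benjamini-Hochberg adjustment and a two-sided threshold of 0.05. The fit was tested on simulated data. Within-array differences of probe pairs were compared by exact permutation tests over 70 assignments. In the list of other calcium genes each gene was read by its brightest tested probe, and named genes are those with an unadjusted p under 0.05 and the 2 with the smallest p in each group. A gene that this rule names is not reported here. Symbols came from a RefSeq table of GRCm38.p6 by accession, symbol or older symbol. The genes and lists were chosen with earlier results of these data known. The number of arrays limits the precision.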

Additional observations from a re-analysis of the deposited data

Results flagged for a closer look

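A single array stood far from the other 3 of its group in 4 of the 26 groups of arrays checked (13 probes in 2 genotypes); chance alone gives about 5%. Ryr2 in R6/2 replicate 3 was at -0.16, above the other R6/2 arrays at -0.80 to -0.72. The Itpr2 probe A_51_P468269 in R6/2 replicate 4 was at -4.60, below the other R6/2 arrays at -3.71 to -3.61, and it was not well above background there. The Atp2a2 probe A_52_P168097 in WT replicate 2 was at 2.69, below the other WT arrays at 3.83 to 3.98. Stim2 in WT replicate 1, the array with the fewest probes well above background, was at -3.64, below the other WT arrays at -1.76 to -1.40.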

How the results depend on the processing

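The 17 alternatives were normexp, quantile normalization, the authors' log2 values, 2 other filters, 1 probe per gene, a mean-dependent prior, the replicate block, the unpaired t-test and leaving out each of the 8 arrays. No calcium store probe passed after adjustment in any of them, with a smallest adjusted p of 0.256 (Ryr1, mean-dependent prior). Ryr1, Itpr1, both Stim1 probes, Ryr3, Atp2a3, both Atp2a2 and both Itpr2 probes kept a negative difference in every alternative that tested them. The other 3 changed sign. Itpr3 was -0.062 with normexp and -0.12 with quantile normalization, and ranged from -0.14 without R6/2 replicate 4 to +0.11 without WT replicate 4, with -0.066 without WT replicate 1 and -0.068 without WT replicate 2. Ryr2 was -0.016 without R6/2 replicate 3 and -0.036 without WT replicate 2, and up to +0.23 without another array. Stim2 ranged from -0.79 without WT replicate 1 to +0.23 without R6/2 replicate 1. The count of all probes past the threshold, 1 in limma, was 8 with normexp, 2 with quantile normalization, 7 among probes well above background on all 8 arrays, 8 with a mean-dependent prior, 0 with the replicate block and 0 with the t-test, which gave 2795 at an unadjusted p under 0.05. It ranged from 0 to 3 over the fits that left out 1 array, with 3 without WT replicate 1. The median difference over the calcium store probes was -0.30 with normexp. Same-numbered arrays did not deviate together (correlations of -0.04 to 0.02). The labels do not say whether the numbers pair the samples, and the arrays are too few for these correlations to settle it. With the replicate block, 2 of the 13 probes were lower at an unadjusted p under 0.05. Over all 41379 tested probes, 2755 were under 0.05 in either direction with the replicate block, against 2903 in the main fit. Of the 61 other calcium genes, 3 were lower at an unadjusted p under 0.05. This count was 6 with normexp, 7 with a mean-dependent prior and 5 with the t-test. It was 6 among probes on all 8 arrays, where fewer genes were tested. Leaving out 1 array gave 1 to 7, with 1 without R6/2 replicate 4, 5 without WT replicate 1 and 7 without WT replicate 2. The count of listed genes that were higher, 5, was 2 among probes on all 8 arrays. Over all tested probes, the number under 0.05 in either direction changed too. It was 2903 of 41379 in the main fit, 2930 of 41377 with normexp and 2129 of 26665 on all 8 arrays. With a mean-dependent prior it was 3054 of 41379. The cause of the other changes was not tested. Signal over background limits Itpr2, Itpr3 and Stim2.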
